A study of Sus scrofa with 11 samples.

Results

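Amino acid transporters of porcine coronary artery were followed through vessel culture in bulk RNA sequencing counts. The genes were chosen by symbol and a count minimum: every gene of the solute carrier families SLC1, SLC3, SLC6, SLC7, SLC36, SLC38 and SLC43 that had at least 10 counts in 2 or more of the 11 libraries. Of 25880 gene identifiers, 14857 carried a symbol, 57 matched these families, and 42 passed the count minimum. The 42 were 12 SLC6 genes, 8 SLC38 genes, 8 heavy and light chains of the heteromeric transporters (SLC3 and part of SLC7), 6 SLC1 genes, 3 SLC36 genes, 3 SLC43 genes and 2 cationic transporters of SLC7. The study cultured pig coronary arteries in a bioreactor as a model for testing stents. There were 2 libraries of native arteries, and stented arteries kept without flow gave 2 (stented static, marked Stent/Flow -), stented arteries under the strongest flow mark 3 (stented high-flow, Stent/Flow ++), unstented arteries under that same mark 2 (high-flow, Flow ++) and unstented arteries under the weaker mark 2 (low-flow, Flow +). No animal age, strain, flow rate or culture time was given in the labels used here. Both stented static labels carry a d suffix of 3 and that of stented high-flow replicate 3 one of 7, with no meaning stated. The number 25 stands in the labels of both native replicate 2 and the first stented high-flow library, and what the label numbers mark is not known here.

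Cells take up amino acids through carriers with overlapping substrates. Heteromeric transporters pair a heavy chain (SLC3A2 or SLC3A1), which brings the complex to the cell surface, with an SLC7 light chain that carries the amino acid. SLC1 carriers move glutamate or small neutral amino acids, and SLC38 carriers move glutamine and other neutral amino acids. Some SLC36 carriers couple amino acids to protons, and SLC43 carriers move large neutral amino acids or purine bases. SLC6 carriers include those for glycine, taurine, creatine, proline and the monoamine transmitters. Several of these genes are induced by the transcription factor ATF4 when amino acids are short, and carriers of the lysosomal membrane report amino acids to the growth kinase complex mTORC1.

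Library totals were 13.5 to 26.8 in units of 1000000 counts, and levels are given as counts per 1000000 (CPM) on TMM-scaled library sizes, in replicate order. The transporter genes together took 0.0949% and 0.12% of all counts in native libraries and 0.157% to 0.239% in the 9 cultured ones. These are shares of plain library totals, on which the median of all genes was also above native, as given below. The largest sums over all libraries were those of SLC38A2 (50423 counts) and SLC1A5 (50283), which were called in no comparison. Changes are log2 fold changes ± standard error from edgeR's quasi-likelihood test, with p-values adjusted by Benjamini-Hochberg over 15348 genes and called under 0.05. Whether replicate libraries stand for separate animals is not stated in the labels, and the p-values therefore reflect the spread among the libraries at hand, which may be technical. Contractile smooth muscle markers (8 of 8 matched, none at 0) summed to 31897 and 38847 CPM in native and to 488 to 7699 CPM in cultured libraries, and endothelial markers (7 of 8 matched, none at 0) to 331 to 1071 CPM over all libraries. In bulk tissue fewer cells of a type and less RNA per cell cannot be told apart.

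Against native arteries transporter genes moved both ways. The balance of called rises and falls changed with the threshold and when a library was left out. In stented static vessels 10 of 42 rose and 3 fell, where 5.54% of all genes tested rose and 7.19% fell. In stented high-flow vessels 10 rose and 7 fell, against 10.4% and 13.9% of all genes. In high-flow vessels 6 rose and 5 fell, against 5.94% and 8.86%. The stented high-flow falls include SLC1A2, SLC36A2 and SLC38A3, the high-flow falls SLC1A2, and the stented static rises SLC6A13. Each would have missed the count minimum without the group where it was high, so its direction is no support. They stay in all counts over 42 members but are not among the 27 well-counted members below. In low-flow vessels 7 rose and 4 fell, against 5.03% and 7.38%, and with library totals in place of TMM scaling 12 rose and 4 fell. Falls outnumbered rises in all 4 comparisons at a threshold of 0.01 (1 to 3, 2 to 5, 0 to 3 and 0 to 3 as rises to falls). With limma-voom falls outnumbered rises in high-flow vessels (2 to 5). The shares of all genes at these settings are not given here, so these counts cannot be read as particular to transporters. Rises were lost more often than falls when a library was left out, as given below, and the rate of loss over all genes is not given. The members that rose were 23.8%, 23.8%, 14.3% and 16.7% of 42 in these comparisons, each above the share over all genes, and those that fell were 7.14%, 16.7%, 11.9% and 9.52%, near it. The median member changed by 0.92, 0.90, 0.83 and 0.90, and the median of all genes by 0.02, 0.06, 0.02 and -0.00. Without native replicate 1 the median member changed by 0.82, 0.83, 0.80 and 0.98, and without native replicate 2 by 0.99, 1.01, 0.72 and 0.81. Wherever 4 values follow each other below they are in this order of groups. These 4 comparisons share the same 2 native libraries, so their values are given side by side and are not independent of each other. Among the 27 members with at least 10 counts in every library, 8, 9, 5 and 7 rose and 2 fell each time. Of all 12099 genes counted that well, 5.73%, 11.3%, 6.22% and 5.27% rose and 6.56%, 11.3%, 7.39% and 6.01% fell.

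**Figure D1:**
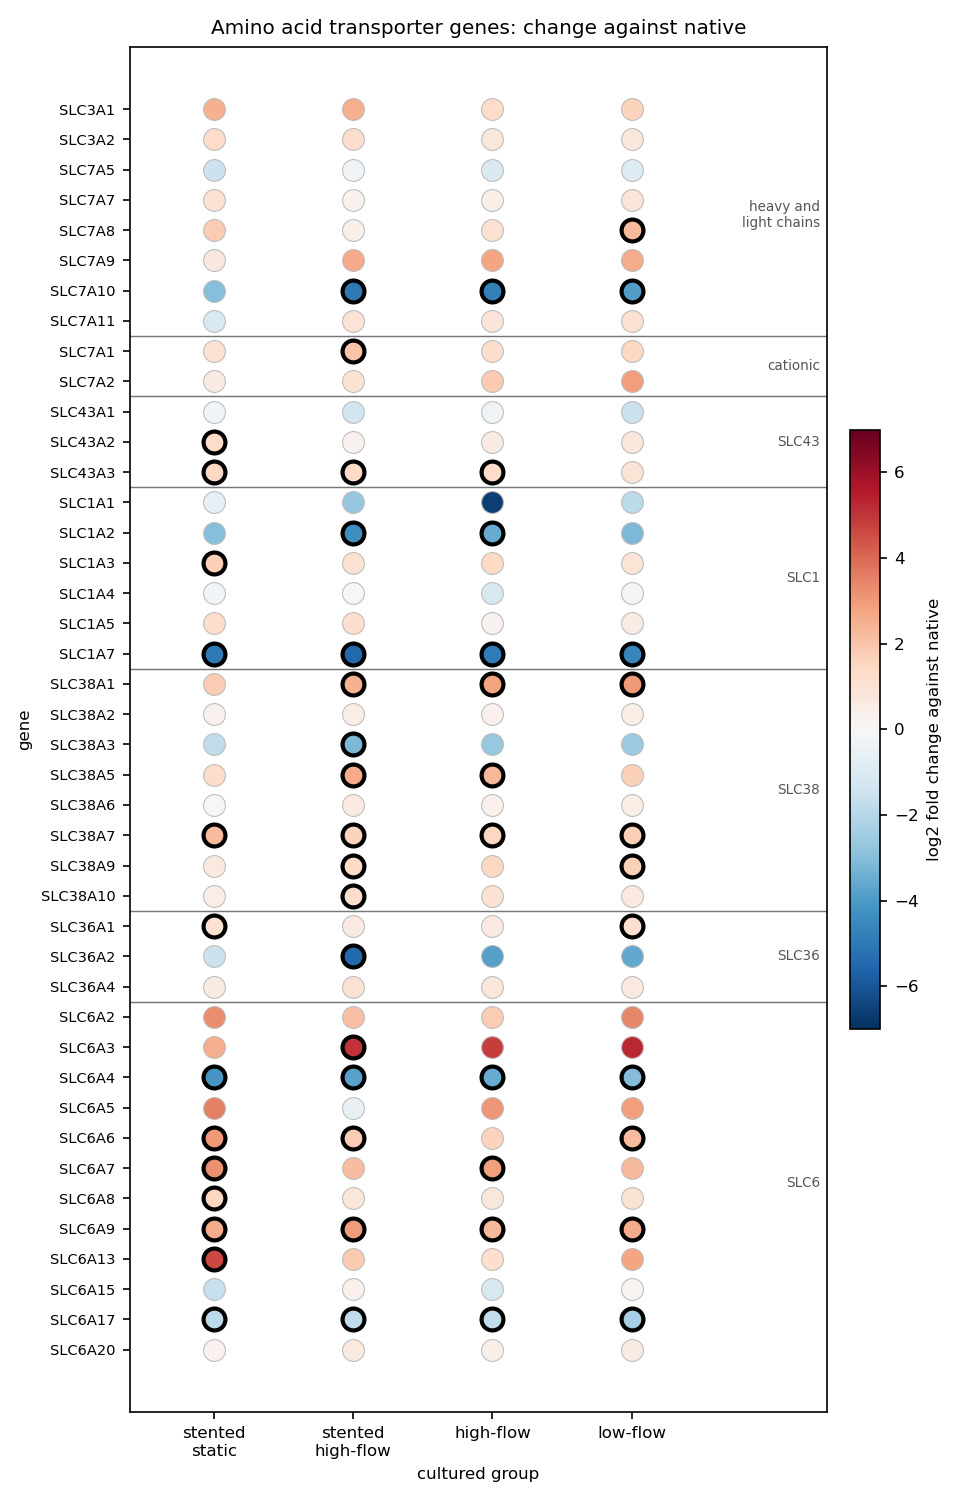
Log2 fold change against native for the 42 transporter genes (rows, by family) in the 4 cultured groups (columns), with colour for the size and a thick black ring for genes called by edgeR at an adjusted p under 0.05. SLC38A7 and SLC6A9 are ringed as higher and SLC1A7, SLC6A4 and SLC6A17 as lower in every column; the dark value of SLC1A1 in high-flow rests on a group with 0 counts in both libraries.

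Over the 4 comparisons with native, 24 of 42 members were called at least once and none in both directions. SLC38A7 and SLC6A9 rose in all 4, and SLC38A1, SLC43A3 and SLC6A6 in 3. SLC1A7, SLC6A4 and SLC6A17 fell in all 4, and SLC7A10 in 3. In 12 members all 9 cultured libraries lay above both native ones, where 14.1% of all genes tested did. In 6 members all 9 lay below, where 16.9% of all genes did. SLC1A2 and SLC36A2 are among these 6 and would have missed the count minimum without the native libraries.

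These counts changed when single libraries were left out. The shares of all genes in these fits are not given here, so the moves cannot be read as particular to transporters. Such fits hold fewer libraries, so a lost call does not show that a change rested on 1 library. The change of SLC6A6 in stented static vessels was 3.04, and 3.07 and 3.05 without native replicates 1 and 2. That of SLC38A3 in stented high-flow vessels went from -3.14 to -1.43 without native replicate 1. Without native replicate 1 the calls in the 4 comparisons with native were 4, 9, 3 and 3, and without native replicate 2 they were 4, 7, 4 and 3. The stented static count was 5 without its own replicate 1 and 8 without either low-flow library. The high-flow count was 4 and 7 without its replicates 1 and 2 and 7 without either low-flow library, and the low-flow count was 3 and 2 without its replicates 1 and 2 and 17 without stented high-flow replicate 1. Of the rises, 1 in stented static vessels (SLC38A7) held without any 1 library and none in the other groups did, while 3 of 3, 5 of 7, 3 of 5 and 2 of 4 of the falls held. The rises of SLC36A1, SLC43A2, SLC43A3, SLC38A5, SLC38A10, SLC6A3, SLC6A7, SLC6A8, SLC6A13 and SLC7A8 given below were each lost without native replicate 1 and again without native replicate 2.

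The serotonin transporter gene SLC6A4 (chromosome 12, 46285995 to 46328377 in Sscrofa11.1) had the smallest adjusted p of all members in 3 of the 4 comparisons. It stood at 38.4 and 26.4 CPM (native), 1.94 and 1.70 (stented static), 2.87, 2.69 and 1.41 (stented high-flow), 3.05 and 2.52 (high-flow) and 3.90 and 3.85 (low-flow). The lowest native library was above the highest cultured one. SLC6A4 changed by -4.15 ± 0.45 in stented static (edgeR adjusted p = 0.000627), -3.81 ± 0.38 in stented high-flow (0.000153), -3.54 ± 0.44 in high-flow (0.00098) and -3.06 ± 0.43 in low-flow vessels (0.00187).

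SLC6A17 (chromosome 4, 109919153 to 109974235), a vesicular carrier of neutral amino acids known from neurons, had 254 and 187 CPM in native libraries. It had 50.5 and 67.8 CPM (stented static), 67.9, 60.7 and 64.9 (stented high-flow), 70.7 and 62.1 (high-flow) and 44.5 and 44.7 (low-flow). Replicates of each cultured group were close, and no cultured library reached the native range. The gene changed by -1.90 ± 0.27, -1.77 ± 0.23, -1.73 ± 0.27 and -2.30 ± 0.27 in the 4 cultured groups (edgeR adjusted p = 0.00183, 0.000596, 0.00247 and 0.000814). SLC1A7 (chromosome 6, 159106083 to 159153766), a glutamate transporter known from retina, went from 23.9 and 14.1 CPM (native) to 0.395 and 0.791 (stented static), 0.933, 0.168 and 0.234 (stented high-flow), 0.56 and 0.667 (high-flow) and 1.20 and 0.35 (low-flow). It thus lay near the level of 3 counts, which is 0.112 to 0.222 CPM by library total, in several cultured libraries and well above it in native ones. SLC1A7 changed by -5.02 ± 0.85, -5.47 ± 0.74, -4.94 ± 0.85 and -4.62 ± 0.82 (edgeR adjusted p = 0.00448, 0.000695, 0.00422 and 0.00627), and the low-flow call was lost without low-flow replicate 2 (0.0698). All calls of SLC6A4 and SLC6A17, and the other 3 of SLC1A7, held when any 1 of the 11 libraries was left out. Schwann and neural markers (7 of 8 matched, none at 0) moved with these genes, at 1044 and 977 CPM summed in native and 74 to 317 CPM in cultured libraries. Erythrocyte and platelet markers (4 of 7 matched) also did, at 40.6 and 51.5 CPM in native and 2.92 to 11.2 CPM in cultured libraries. PPBP was at 0 in both native libraries, and HBB in all cultured ones but low-flow replicate 1. The contractile smooth muscle sum given above fell as well. The part of any of these cell types in the falls was not tested.

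**Figure D2:**
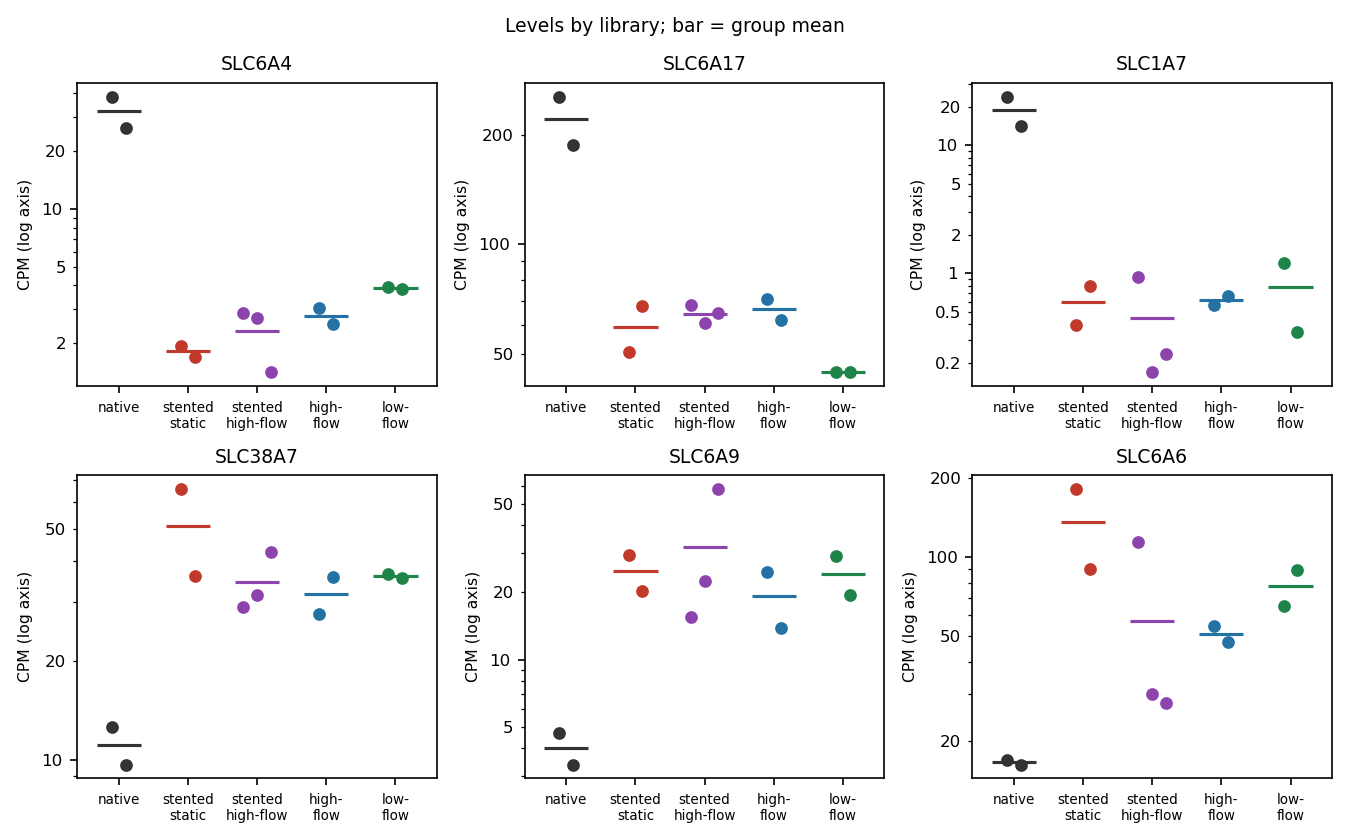
CPM on a log axis by library for SLC6A4, SLC6A17, SLC1A7, SLC38A7, SLC6A9 and SLC6A6 in the 5 groups (points are libraries, bars group means). The top row shows genes with every cultured library below both native ones, and the bottom row genes with every cultured library above both.

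SLC38A7 (chromosome 6, 20387113 to 20401733), which exports glutamine from lysosomes, rose in all 4 comparisons. Native libraries had 12.6 and 9.72 CPM, stented static 65.8 and 36.1, stented high-flow 29.1, 31.5 and 42.6, high-flow 27.7 and 35.7, and low-flow 36.4 and 35.5. Every cultured library had at least 27.7 CPM, above both native ones. The gene rose by 2.19 ± 0.35, 1.63 ± 0.33, 1.51 ± 0.34 and 1.69 ± 0.35 in the 4 cultured groups (edgeR adjusted p = 0.00341, 0.00529, 0.0154 and 0.0114). The stented static call held without any 1 library. The stented high-flow call was lost without native replicate 2 (0.0624), the high-flow call without native replicate 1 (0.0718), native replicate 2 (0.122) or high-flow replicate 2 (0.0692), and the low-flow call without either native (0.0666 and 0.103) or either low-flow library (0.0738 and 0.0675).

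The glycine transporter gene SLC6A9 (chromosome 6, 167267193 to 167301598) had 4.69 and 3.39 CPM (native), 29.5 and 20.2 (stented static), 15.6, 22.4 and 58.1 (stented high-flow), 24.7 and 13.8 (high-flow) and 29.2 and 19.4 (low-flow). Native and cultured levels did not overlap, and stented high-flow replicate 3 was the highest library. SLC6A9 rose by 2.62 ± 0.60, 2.99 ± 0.59, 2.25 ± 0.59 and 2.59 ± 0.60 in the 4 comparisons (edgeR adjusted p = 0.0185, 0.0047, 0.0282 and 0.0195). Each of these calls was lost without native replicate 2 (0.153, 0.0572, 0.177 and 0.144). Without native replicate 1 the stented static (0.0982), high-flow (0.122) and low-flow (0.106) calls were lost, as they were without stented static replicate 1 (0.0771), high-flow replicate 1 (0.163) and either low-flow library (0.118 and 0.0613).

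SLC6A6 (chromosome 13, 70094073 to 70173581), the taurine transporter, had 16.9 and 16.2 CPM (native), 182 and 89.8 (stented static), 114, 30.0 and 27.7 (stented high-flow), 54.6 and 47.6 (high-flow) and 65.3 and 89.7 (low-flow). The native pair was tight and lay below all cultured libraries, while stented high-flow libraries ranged over 4.1-fold. SLC6A6 rose by 3.04 ± 0.65 in stented static (edgeR adjusted p = 0.0141), 1.78 ± 0.59 in stented high-flow (0.0483) and 2.22 ± 0.63 in low-flow vessels (0.0425), and changed by 1.63 ± 0.62 in high-flow vessels without passing (0.102). All 3 calls were lost without native replicate 1 (0.0936, 0.197 and 0.181) or native replicate 2 (0.104, 0.192 and 0.184). The stented static call was also lost without its replicate 1 (0.0619), the stented high-flow call without its replicate 1 (0.101, with the change at 0.81), either high-flow (0.0634 and 0.059) or either low-flow library (0.0641 and 0.0643), and the low-flow call without either high-flow (0.0572 and 0.0527) or either low-flow library (0.116 and 0.178). The other SLC6 genes that rose were the creatine transporter SLC6A8 and the GABA and taurine carrier SLC6A13 in stented static, the proline transporter SLC6A7 in stented static and high-flow, and the dopamine transporter SLC6A3 in stented high-flow vessels. SLC6A13 had 1 count over both native libraries and 39 over the stented static ones, a ratio of 30.6 with an exact 95% counting interval of 5.18 to 1.24e+03. SLC6A3 had 1 count in native and 75 over the stented high-flow libraries, a ratio of 46.2 (interval 8.05 to 1.85e+03). Of the 75 counts, 61 were in replicate 3, 13 in replicate 2 and 1 in replicate 1. Without replicate 3 the change of SLC6A3 went from 5.08 to 3.50 and was no longer called (edgeR adjusted p = 0.105). SLC6A2, SLC6A5, SLC6A15 and SLC6A20 passed no comparison.

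Of the 8 SLC38 genes, 1, 5, 3 and 3 rose, and 1 fell, in stented high-flow vessels. SLC38A1 (chromosome 5, 77009840 to 77076723), a sodium-coupled glutamine carrier, had 3.06 and 1.15 CPM (native), 4.11 and 10.6 (stented static), 11.1, 13.6 and 10.9 (stented high-flow), 22.4 and 6.78 (high-flow) and 21.4 and 12.8 (low-flow). All cultured libraries lay above both native ones, with stented static replicate 1 closest. SLC38A1 changed by 1.80 ± 0.67 in stented static (edgeR adjusted p = 0.0997) and rose by 2.50 ± 0.65, 2.80 ± 0.68 and 3.02 ± 0.69 in stented high-flow, then high-flow, then low-flow vessels (0.0178, 0.0204 and 0.0177). Without native replicate 2 these 3 calls were lost (0.14, 0.144 and 0.133), without native replicate 1 the high-flow (0.0522) and low-flow (0.0533) ones, without high-flow replicate 1 the high-flow one (0.172), and without either low-flow library the low-flow one (0.113 and 0.0532).

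SLC38A2, its relative with similar substrates and a known target of ATF4, lies 36.8 kb further along chromosome 5 (77113491 to 77127715). It had 193 and 170 CPM (native), 167 and 277 (stented static), 318, 307 and 157 (stented high-flow), 305 and 163 (high-flow) and 303 and 215 (low-flow). Cultured libraries lay on both sides of the native pair except in low-flow, where both lay above. SLC38A2 changed by 0.29 ± 0.42, 0.52 ± 0.39, 0.36 ± 0.42 and 0.51 ± 0.42 (edgeR adjusted p = 0.69, 0.364, 0.61 and 0.467), with 95% intervals of -0.64 to 1.22, -0.34 to 1.38, -0.56 to 1.29 and -0.42 to 1.44.

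SLC38A9 (chromosome 16, 34639575 to 34858827), the lysosomal arginine sensor of mTORC1, had 5.47 and 7.31 CPM (native), 6.76 and 14.0 (stented static), 23.7, 14.4 and 11.9 (stented high-flow), 19.8 and 15.3 (high-flow) and 24.8 and 15.4 (low-flow). Only stented static replicate 1 fell within the native range. SLC38A9 rose by 1.38 ± 0.43 in stented high-flow (edgeR adjusted p = 0.0396) and 1.65 ± 0.46 in low-flow vessels (0.0401), and changed by 0.69 ± 0.46 in stented static (0.343) and 1.46 ± 0.46 in high-flow vessels (0.0552). The stented high-flow call was lost without native replicate 1 (0.233) or 2 (0.11), stented high-flow replicate 1 (0.0873) or 2 (0.064) or low-flow replicate 1 (0.0509). The low-flow call was lost without native replicate 1 (0.22) or 2 (0.124), either low-flow library (0.248 and 0.0837), stented high-flow replicate 2 (0.0573) or high-flow replicate 1 (0.0512). The glutamine carrier SLC38A5 rose in stented high-flow (2.65 ± 0.65) and high-flow vessels (2.33 ± 0.67), and SLC38A10 in stented high-flow vessels (1.24 ± 0.32). SLC38A3, a glutamine carrier, fell in stented high-flow vessels, and SLC38A6 passed nowhere.

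Among SLC36 carriers, the lysosomal SLC36A1 rose in stented static (1.09 ± 0.32, edgeR adjusted p = 0.0471) and low-flow vessels (1.18 ± 0.32, 0.035). Its neighbour SLC36A2, 72.4 kb away on chromosome 16, fell in stented high-flow vessels, from 64 counts over the native libraries to 2 over 3 stented high-flow libraries, a ratio of 0.0193 (exact 95% counting interval 0.00228 to 0.0725). SLC36A4 passed no comparison. The matched families held 5 pairs of members within 500 kb of each other. In 4 of them, 1 gene was called against native at least once and the other never: SLC38A1 and not SLC38A2, SLC43A3 and not SLC43A1, SLC7A10 and not SLC7A9, and SLC7A8 and not SLC7A7. In the fifth, SLC36A1 was called higher and SLC36A2 lower. The difference between neighbours was not tested.

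The heavy chain SLC3A2 (chromosome 2, 8892071 to 8919070) and the light chain SLC7A5 (chromosome 6, 1545940 to 1574298), which together carry leucine and other large neutral amino acids, had changes of opposite sign against native in all 4 comparisons, none of which passed. SLC3A2 had 66.7 and 55.3 CPM (native), 203 and 108 (stented static), 65.0, 163 and 215 (stented high-flow), 118 and 93.0 (high-flow) and 115 and 96.7 (low-flow). All cultured libraries but stented high-flow replicate 1 were above both native ones. It changed by 1.35 ± 0.48, 1.28 ± 0.45, 0.79 ± 0.48 and 0.80 ± 0.48 in the 4 cultured groups (edgeR adjusted p = 0.0899, 0.0626, 0.299 and 0.304), so it passed in none.

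SLC7A5 had 142 and 86.9 CPM (native), 40.2 and 41.1 (stented static), 21.5, 64.7 and 207 (stented high-flow), 70.6 and 39.7 (high-flow) and 79.9 and 39.1 (low-flow). All cultured libraries but stented high-flow replicate 3 were below both native ones, and that library was the highest of all. SLC7A5 changed by -1.49 ± 0.79, -0.23 ± 0.70, -1.05 ± 0.78 and -0.94 ± 0.78 (edgeR adjusted p = 0.233, 0.845, 0.398 and 0.464). As a log2 ratio of CPM set to a native mean of 0, SLC7A5 over SLC3A2 was 0.22 and -0.22 (native), -3.21 and -2.27 (stented static), -2.47, -2.21 and -0.92 (stented high-flow), -1.61 and -2.10 (high-flow) and -1.40 and -2.18 (low-flow). The ratio was thus lower in all 9 cultured libraries than in both native ones, including stented high-flow replicate 3. SLC7A5 over SLC1A5, the glutamine carrier whose exchange feeds SLC7A5, was likewise lower in all 9, at -1.17 to -2.92. The ratios were chosen after their values were seen and therefore got no test.

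**Figure D3:**
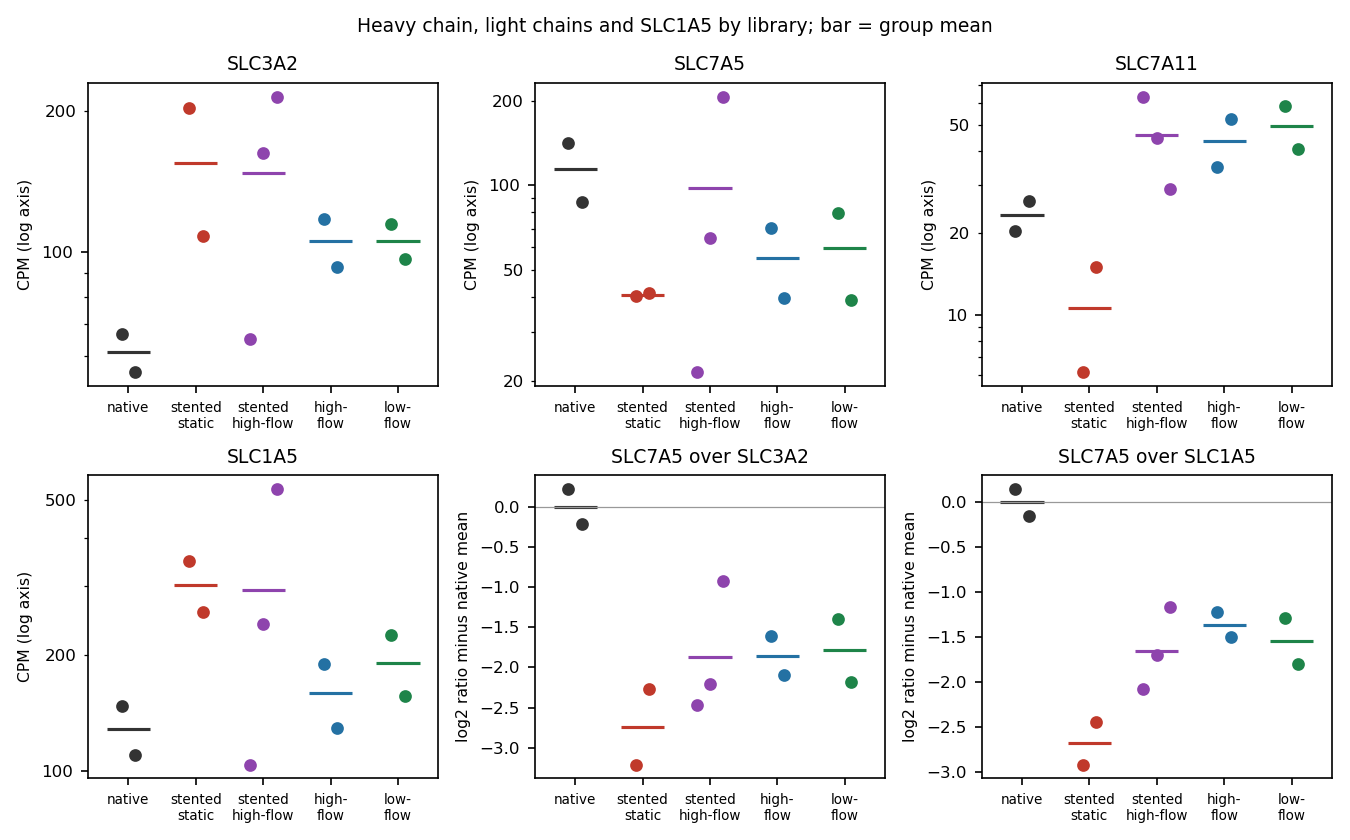
CPM on a log axis by library for SLC3A2, SLC7A5, SLC7A11 and SLC1A5, and the log2 ratios of SLC7A5 to SLC3A2 and to SLC1A5 less the native mean (points are libraries, bars group means). Both ratios lie below the native libraries in all 9 cultured ones, and SLC7A11 is lowest in stented static at 6.13 and 15.0 CPM.

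SLC7A11 (chromosome 8, 88608083 to 88690589), the light chain that imports cystine for glutathione synthesis, was the only member called between cultured groups. It had 20.3 and 26.1 CPM (native), 6.13 and 15.0 (stented static), 63.4, 44.8 and 29.1 (stented high-flow), 35.1 and 52.4 (high-flow) and 58.5 and 40.8 (low-flow). Both stented static libraries lay below native and all 7 flow-cultured libraries above it. Against native it changed by -1.14 ± 0.47, 0.98 ± 0.43, 0.91 ± 0.46 and 1.10 ± 0.46, and none passed (edgeR adjusted p = 0.133, 0.124, 0.212 and 0.146). It was higher in stented high-flow than in stented static vessels by 2.12 ± 0.46 (adjusted p = 0.0362, 95% interval 1.11 to 3.12). No culture time was given. Both stented static labels carry a d suffix of 3, stented high-flow replicate 3 carries 7 and its other replicates none. The label numbers also differ (34 and 36 against 25, 28 and 32). Flow therefore cannot be told apart from culture time or from whatever the label numbers mark. This call of SLC7A11 was 1 among 42 members, where 1.18% of all genes were called higher and 1.67% lower in stented high-flow than in stented static vessels. The call was lost without native replicate 1 (0.0611) or 2 (0.0607), stented static replicate 1 (0.225), stented high-flow replicate 1 (0.0609) or 2 (0.0855) or either low-flow library (0.0589 and 0.0588), and with only the groups compared (0.165) or only one count table (0.0839).

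Of the other light chains, SLC7A8, which carries neutral amino acids, rose in low-flow vessels by 2.19 ± 0.56 (edgeR adjusted p = 0.0274). SLC7A7, which exchanges cationic for neutral amino acids and is known from macrophages and epithelia, had 7.29 and 5.69 CPM (native), 20.0 and 7.42 (stented static), 8.47, 5.22 and 10.2 (stented high-flow), 11.2 and 6.06 (high-flow) and 11.7 and 12.2 (low-flow). Stented static replicate 1 was the highest library, and the gene changed by 1.08 ± 0.51, 0.30 ± 0.47, 0.41 ± 0.51 and 0.88 ± 0.51 without passing (adjusted p = 0.186, 0.686, 0.637 and 0.285). Macrophage markers (8 of 8 matched, MARCO at 0 in native replicate 2) summed to 238 and 219 CPM (native), 1564 and 658 (stented static), 297, 257 and 479 (stented high-flow), 410 and 209 (high-flow) and 599 and 683 (low-flow), and their part in these levels was not tested. SLC7A9 and its heavy chain SLC3A1, the cystine transporter of kidney and gut, passed no comparison.

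SLC7A10 (chromosome 6, 43002427 to 43017605), a carrier of small neutral amino acids known from fat and brain, had 10.5 and 8.51 CPM (native), 0.632 and 1.76 (stented static), 0, 0.168 and 0.656 (stented high-flow), 0.458 and 0.205 (high-flow) and 0.514 and 0.734 (low-flow). All cultured libraries lay below both native ones. It changed by -3.00 ± 0.91 in stented static (edgeR adjusted p = 0.0534) and fell by 4.98, 4.81 and 3.91 on the log2 scale in stented high-flow, then high-flow, then low-flow vessels (standard errors 0.87, 1.02 and 0.95, adjusted p = 0.0027, 0.0112 and 0.0238). The stented high-flow call held without any 1 library. The high-flow call was lost without native replicate 1 (0.0589) or either high-flow library (0.0663 and 0.0812), and the low-flow call without either native (0.109 and 0.0881) or either low-flow library (0.181 and 0.141).

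Adipocyte markers (7 of 8 matched) summed to 2989 and 1916 CPM in native, 2503 and 251 in stented static and 30.1 to 277 CPM in the flow-cultured libraries. Their defining gene LEP was at 0 in stented static replicate 2 and stented high-flow replicates 1 and 2, and ADIPOQ in high-flow replicate 1. SLC36A2, a carrier known from fat, followed the same libraries, at 2.28 and 1.67 CPM in native, 1.34 and 0 in stented static and at most 0.204 CPM elsewhere. SLC7A10 did not follow them in stented static replicate 1, where the adipocyte sum was 2503 CPM and SLC7A10 was at 0.632 CPM. Cardiomyocyte markers (5 of 9 matched) summed to 1168 CPM in native replicate 1 and 97.6 CPM in replicate 2, against 7.92 to 53.5 CPM in cultured libraries, where MYL2 or TNNT2 was at 0 in 8 of 9. SLC38A3 had 2.28 and 0.403 CPM in the same native libraries and 0.0718 to 0.553 CPM in cultured ones. Its fall in stented high-flow vessels (-3.14 ± 0.93, edgeR adjusted p = 0.031) was lost without native replicate 1 (0.467), and also without stented high-flow replicate 1 (0.0666) or 2 (0.0933) or either low-flow library (0.0512 and 0.0513). The fall of SLC36A2 was lost without native replicate 1 (0.0639). The part of these cell types in the falls was not tested. SLC36A2 and SLC38A3 were picked out for these values after they were seen.

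**Figure D4:**
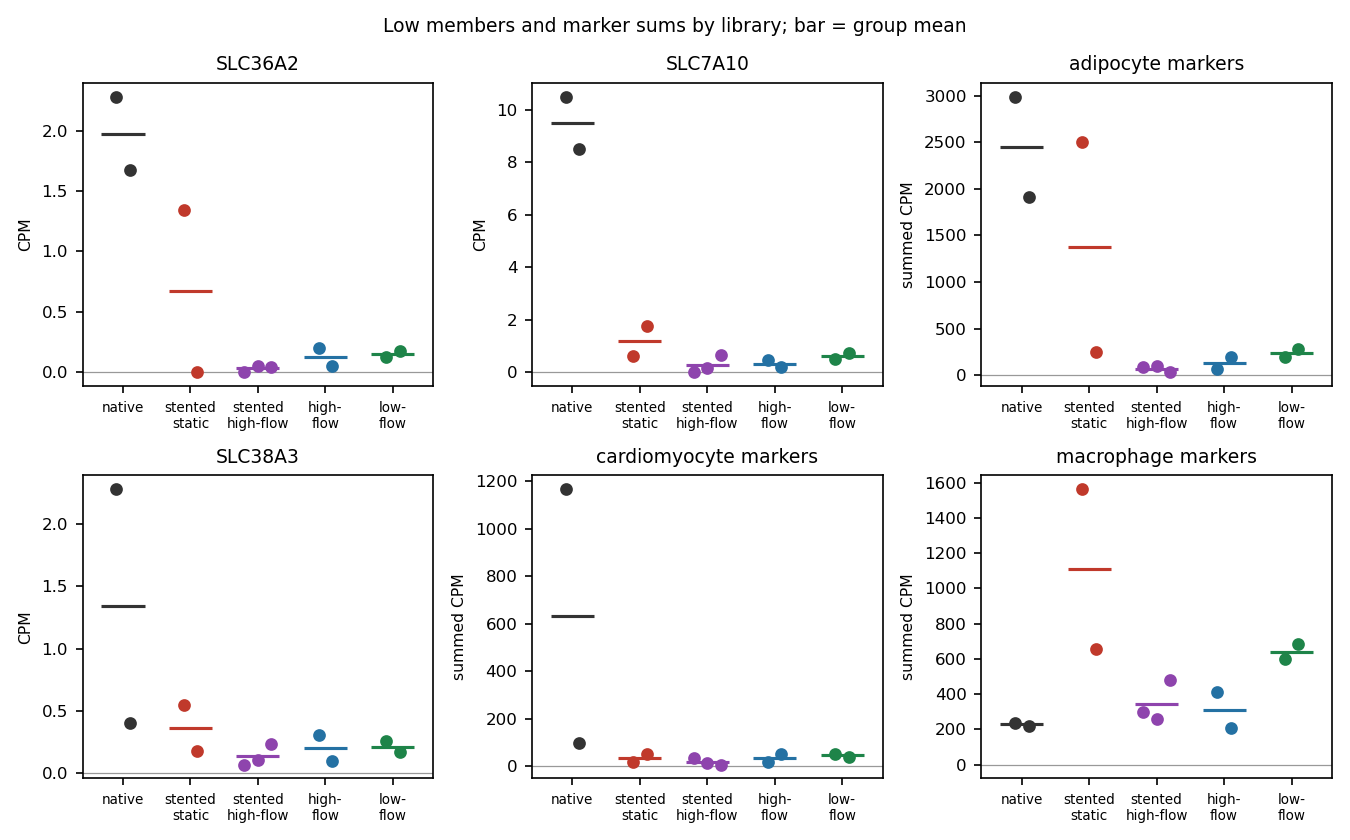
CPM by library for SLC36A2, SLC7A10 and SLC38A3, and summed CPM of adipocyte, cardiomyocyte and macrophage markers (points are libraries, bars group means, linear axes from 0). SLC36A2 and the adipocyte sum are high in both native libraries and in stented static replicate 1, and SLC38A3 and the cardiomyocyte sum are highest in native replicate 1.

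SLC7A1 (chromosome 11, 6538053 to 6604654), the main carrier of arginine and lysine in many cells, had 15.0 and 19.6 CPM (native), 40.5 and 33.5 (stented static), 32.4, 62.9 and 112 (stented high-flow), 55.5 and 26.2 (high-flow) and 54.6 and 41.2 (low-flow). All cultured libraries were above both native ones. SLC7A1 rose by 2.00 ± 0.50 in stented high-flow vessels (edgeR adjusted p = 0.0153), and this call needed both native libraries (0.138 without replicate 1 and 0.0773 without replicate 2). It changed by 1.09 ± 0.52, 1.24 ± 0.52 and 1.47 ± 0.52 in stented static, high-flow and low-flow vessels without passing (0.185, 0.133 and 0.0904). SLC7A2, the other arginine carrier, ranged widely within groups, with 33.7 and 40.7 CPM (native), 36.6 and 76.0 (stented static), 165, 46.0 and 16.1 (stented high-flow), 44.3 and 218 (high-flow) and 209 and 361 (low-flow). Its largest change, 2.94 ± 0.97 in low-flow vessels, did not pass (0.0734), and the authors' deposited table lists it there at 2.94.

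SLC1A5, the exchanger of glutamine and other small neutral amino acids, had 147 and 110 CPM (native), 348 and 258 (stented static), 104, 240 and 535 (stented high-flow), 189 and 129 (high-flow) and 224 and 156 (low-flow). Stented high-flow libraries held both the lowest and the highest value. SLC1A5 changed by 1.23 ± 0.58, 1.19 ± 0.55, 0.30 ± 0.58 and 0.56 ± 0.58 and passed nowhere (edgeR adjusted p = 0.187, 0.138, 0.766 and 0.568). SLC1A3, a glutamate transporter of glia and other cells, had 7.62 and 5.64 CPM (native), 29.8 and 13.0 (stented static), 14.5, 14.4 and 13.0 (stented high-flow), 24.8 and 9.50 (high-flow) and 13.7 and 11.5 (low-flow). All cultured libraries were above native. It rose by 1.69 ± 0.49 in stented static vessels (adjusted p = 0.0456) and changed by 1.07 ± 0.45, 1.37 ± 0.49 and 0.93 ± 0.48 elsewhere (0.11, 0.0837 and 0.237). The call was lost without either native library (0.144 and 0.241), stented static replicate 1 (0.282), stented high-flow replicate 2 (0.0663) or either low-flow library (0.0707 and 0.0703).

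The glutamate transporter SLC1A2 fell in stented high-flow (-4.36 ± 0.94, edgeR adjusted p = 0.00742) and high-flow vessels (-3.53 ± 1.02, 0.0406). The stented high-flow call held without any 1 library, and the high-flow call was lost without either native (0.138 and 0.14), either high-flow (0.072 and 0.195) or either low-flow library (0.0711 and 0.0713) or stented high-flow replicate 2 (0.0553), with the change between -5.56 and -2.68. SLC1A2 had at least 10 counts in the 2 native libraries alone (2.73 and 2.70 CPM, against at most 0.547 CPM in cultured ones). It thus met the count minimum only through the group where it was high, and its falls are no support for a direction of the family. No other member had 10 counts in libraries of 1 group alone. SLC36A2, SLC38A3 and SLC6A13 had 10 counts in 3, 2 and 3 libraries. They would have missed the minimum without the group where they were high (native, native and stented static). Their calls are no support for a direction either. SLC1A1 and SLC1A4 passed nowhere. Within SLC43, SLC43A3, a carrier of purine bases, rose by 1.46 ± 0.38, 1.42 ± 0.36 and 1.34 ± 0.38 in stented static, stented high-flow and high-flow vessels (adjusted p = 0.0326, 0.0163 and 0.0383). SLC43A2, a carrier of large neutral amino acids, rose in stented static vessels by 1.34 ± 0.34 (0.0267), and SLC43A1 passed nowhere.

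The unstented groups compared the strengths of flow, and the high-flow groups compared vessels with and without a stent. The labels hold the numbers 23 and 24 (high-flow), 37 and 38 (low-flow) and 25, 28 and 32 (stented high-flow). Flow strength and stent therefore cannot be told apart from whatever the label numbers mark in these comparisons. No member was called between low-flow and high-flow vessels by edgeR, DESeq2 or limma-voom, and 1 had an unadjusted p under 0.05 (SLC6A17, -0.57 ± 0.26). All genes gave 0.0261% higher and 0.0782% lower calls there. No member was called between stented high-flow and high-flow vessels by any of these tools, 1 had an unadjusted p under 0.05 (SLC6A5), and 0% of all genes were called higher and 0% lower. The median 95% interval of a member reached 1.29 and 1.20 log2 units either way in these comparisons. The interval lay within a 2-fold change in both directions for 2 members in low-flow against high-flow and for 9 in stented high-flow against high-flow. For the other members a 2-fold difference was inside the interval. For SLC7A11 the difference was 0.18 (interval -0.82 to 1.19) between low-flow and high-flow and 0.07 (-0.86 to 0.99) between stented high-flow and high-flow vessels. For SLC6A6 it was 0.60 (-0.73 to 1.92) and 0.16 (-1.06 to 1.37), and for SLC7A5 0.11 (-1.58 to 1.80) and 0.83 (-0.76 to 2.41). The 2 count tables were joined for the last of these, and stent cannot be told apart from table there.

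Stented high-flow libraries differed from each other. Of the 27 members with at least 10 counts in every library, replicate 3 was highest of its group in 14 and lowest in 11, replicate 1 highest in 11 and lowest in 12, and replicate 2 highest in 2 and lowest in 4. Over all 12099 genes counted that well, replicate 3 was highest in 38.6% and lowest in 41.7%, replicate 1 in 39.5% and 38.7%, and replicate 2 in 21.9% and 19.7%. The members' shares were 51.9% and 40.7%, 40.7% and 44.4%, and 7.41% and 14.8% in the same order. SLC7A5 was 9.66-fold, SLC38A5 5.55-fold, SLC1A5 5.15-fold, SLC1A4 5.14-fold and SLC6A9 3.73-fold higher in replicate 3 than in replicate 1. SLC7A2 was 10.2-fold, SLC6A6 4.1-fold, SLC36A4 3.9-fold and SLC7A11 2.17-fold lower in replicate 3. In all 9 of these genes replicate 2 lay between the others. Replicate 3 is the library with the d suffix of 7. The mean log2 CPM of 23 measured ATF4 target genes, less the native mean, was 0.53, 1.39 and 2.13 in replicates 1, 2 and 3, against 1.31 and 0.77 (stented static), 1.23 and 0.98 (high-flow) and 1.25 and 0.51 (low-flow). SLC38A2, named above as a target of ATF4, was at 318, 307 and 157 CPM in replicates 1, 2 and 3, the opposite order. The part of ATF4 in these gaps was not tested.

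**Figure D5:**
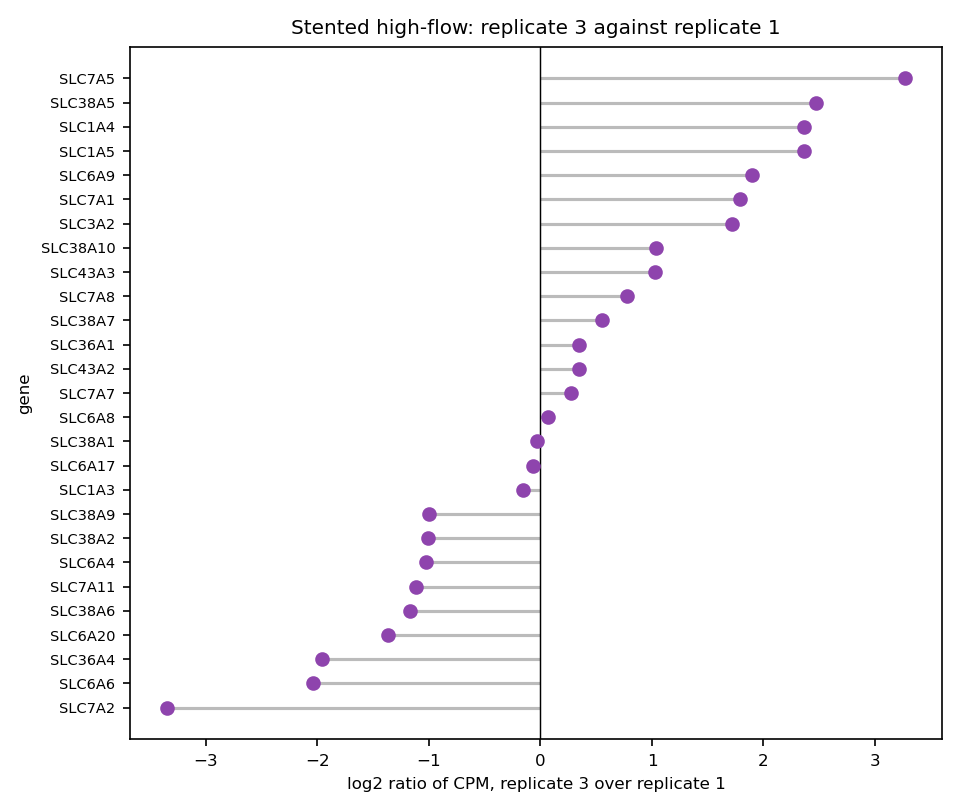
Log2 ratio of CPM in stented high-flow replicate 3 to replicate 1 (horizontal axis) for the 27 members with at least 10 counts in every library (rows, sorted). SLC7A5 (3.27), SLC38A5 (2.47), SLC1A5 (2.36) and SLC1A4 (2.36) are at the upper end and SLC7A2 (-3.35) and SLC6A6 (-2.04) at the lower end.

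Genes that respond to amino acid shortage, make use of the carried amino acids or charge them onto tRNA were counted beside the transporters. As background, 5.54%, 10.4%, 5.94% and 5.03% of all genes rose and 7.19%, 13.9%, 8.86% and 7.38% fell in the 4 comparisons with native, with medians of 0.02, 0.06, 0.02 and -0.00. Of 23 measured ATF4 target genes, 7, 13, 7 and 6 rose and 1 fell each time, with medians of 0.92, 1.76, 1.10 and 1.00. The gene that fell each time was ATF3, a stress transcription factor, which changed by -3.76 ± 0.43 in stented high-flow vessels (edgeR adjusted p = 0.000278). The stress hormone gene GDF15 rose there by 5.38 ± 1.03 (0.0042), and the glutathione-degrading enzyme gene CHAC1 by 3.46 ± 0.63 (0.00321). The 38 symbols listed for cytosolic aminoacyl-tRNA synthetases held old and new names of the same genes, and 19 genes were matched. Of these, 1, 13, 3 and 2 rose in the 4 comparisons and none fell. WARS1 was at 2.21 ± 0.67 and MARS1 at 2.01 ± 0.57 in stented high-flow vessels. None of the measured ATF4 targets or synthetases was called in the 3 comparisons between cultured groups. Of 26 measured genes of mTORC1 amino acid sensing, 1, 1, 0 and 0 rose and 2 fell each time, with medians of 0.07, 0.24, 0.04 and 0.08. The lysosomal transcription factor gene TFEB was among those that fell each time, with changes of -1.41, -1.77, -1.56 and -1.56.

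Of 10 measured glutathione synthesis genes, 2, 5, 2 and 4 rose and none fell. GCLC, the catalytic subunit of the rate-limiting enzyme, rose in stented high-flow, then high-flow, then low-flow vessels by 2.39 ± 0.44, 2.28 ± 0.45 and 2.21 ± 0.45 (edgeR adjusted p = 0.00322, 0.00844 and 0.0114). Of 15 genes of arginine, ornithine and polyamine metabolism, 3 rose each time and 2, 4, 2 and 3 fell. The arginine-cleaving enzyme gene ARG1 had 1 count over the native libraries and 224, 1032, 668 and 1151 over the libraries of the cultured groups, ratios of 176, 636, 559 and 725. Their exact 95% counting intervals had lower bounds of 31.2, 114, 100 and 130. DDAH1, which degrades methylated arginines, was higher in stented high-flow than in stented static vessels by 2.20 ± 0.42 (0.0248).

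Of 15 genes of branched-chain amino acid breakdown 1 rose each time and 2, 6, 5 and 4 fell, where 7.19%, 13.9%, 8.86% and 7.38% of all genes fell. The gene that rose each time was the cytosolic transaminase BCAT1, by 2.88 ± 0.67, 3.53 ± 0.67, 3.06 ± 0.68 and 3.51 ± 0.69, while BCKDHB, a subunit of the branched-chain ketoacid dehydrogenase, fell by 1.31, 2.34, 2.25 and 2.35 on the log2 scale. Of 11 glutamine and glutamate enzyme genes, 1, 2, 0 and 1 rose and 1, 1, 1 and 0 fell. Of 15 measured amino acid carriers outside the matched families, 6, 4, 3 and 5 rose and 1, 1, 0 and 0 fell. The mitochondrial aspartate and glutamate carrier SLC25A12 fell in stented static vessels by 1.59 on the log2 scale (edgeR adjusted p = 0.00628) and was higher in stented high-flow than in stented static vessels by 1.32 ± 0.27 (0.0312).

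The authors' deposited tables of changed genes list 2, 5, 5 and 8 members in the 4 comparisons with native, and 2, 5, 5 and 7 of these were also called here. The 15 family genes under the count minimum included SLC1A6, SLC36A3, SLC38A4, SLC38A8, SLC38A11, SLC7A3, SLC7A4, SLC7A13 and SLC7A14. In none of the 7 comparisons were 17 of the 42 called, among them SLC7A5, SLC3A2, SLC1A5, SLC38A2, SLC7A2 and SLC7A7.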

How the data were processed

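RNA of flash-frozen vessels was column-purified with DNase treatment and sequenced paired-end, per the labels' protocols. The authors deposited gene counts per library in 2 tables whose native columns are identical, and the tables were joined by gene. Trimmomatic, FastQC, DESeq2 and the build Sscrofa11.1 are named in the submitters' processing notes, while the aligner, annotation and strand setting were not given in the sources used here, so reads of overlapping or near-identical genes may be split. The log2 fold changes in the authors' deposited lists of changed genes were used to see which members they list and for 1 value that is named as theirs. Gene positions were taken from RefSeq (Sscrofa11.1) by symbol.

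Counts were fitted in R 4.3.3 with edgeR 4.0.16 (filterByExpr, 15348 genes, all 42 members among them, TMM scaling, quasi-likelihood test over the 5 groups, common dispersion 0.126, 5.02 prior and 6 residual degrees of freedom). The script was tested on simulated data. Replicates did not agree within counting error, so each library counted once. Counting intervals are exact and cover counting error only. Marker and gene lists, the members and the named genes were chosen with earlier results of these data known. Values in every library are given for up to 6 called members with the smallest adjusted p in each comparison and for 10 members followed throughout. Other members named with values (among them SLC7A2, SLC36A2 and SLC38A3) were picked after their values were seen. SLC7A6 had no matched identifier and is not analysed here, and the planned promoter motif search was not run, since no promoter sequence was used. Alternatives were DESeq2 1.42.0, limma-voom (limma 3.58.1), RLE or upper-quartile factors, plain library totals, robust dispersions, the filter dropped or raised to 10 counts in each library, adjusted p under 0.01, the replicate number as a block, fits on the compared groups or on a single count table, mitochondrially encoded genes removed, and each library left out in turn.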

Additional observations from a re-analysis of the deposited data

Results flagged for a closer look

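SLC7A11, the cystine importer, had levels on opposite sides of native in the stented groups: both stented static libraries lay below the native pair and all 3 stented high-flow libraries above it, and the tested difference was 2.12 ± 0.46 on the log2 scale (edgeR adjusted p = 0.0362). Neither change against native passed (-1.14, adjusted p = 0.133, and 0.98, adjusted p = 0.124). The call between the stented groups was lost in 7 of 11 fits that each left out 1 library (adjusted p 0.0588 to 0.225), with only the groups compared (0.165) and with only one count table (0.0839). Between the unstented groups and stented static vessels, levels on opposite sides of native gave differences of 2.05 (high-flow less stented static) and 2.24 (low-flow less stented static), and these differences were not tested. The comparisons share the native and the stented static libraries.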

How the results depend on the processing

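The 53 called values of named members kept their sign in all 1256 alternatives, and 238 were no longer called, 162 of them on leaving out a library. The 62 uncalled values changed sign in 52 of 1478 alternatives and were called in 50. The counts of called members were 13 in stented static, 17 in stented high-flow, 11 in high-flow and 11 in low-flow vessels against native, and 1 in stented high-flow against stented static. Leaving out 1 library gave 4 to 17, 7 to 18, 3 to 16, 2 to 17 and 0 to 2. At a threshold of 0.01 the counts were 4, 7, 3, 3 and 0. With DESeq2 the high-flow count was 19, the low-flow count 17 and that between the stented groups 2, and limma-voom gave 7 in high-flow. Without a filter high-flow and low-flow had 17 each, and with at least 10 counts in every library, which leaves 27 members, stented high-flow had 9 and high-flow 7. With only the groups compared the high-flow count was 18, the low-flow count 28 and that between the stented groups 0, and with only one count table stented static had 7, high-flow 22, low-flow 22 and the stented groups 0. These fits hold fewer libraries, and the cause of the other moves was not tested. The shares of all genes called at these settings are not given here, so the moves cannot be read as particular to transporters. Library totals gave 2 between the stented groups and moved the median of all genes to 0.43, 0.21, 0.24 and 0.27 against native and to -0.25 between the stented groups, and members should be read relative to that. Counts of 0 between low-flow and high-flow and between stented high-flow and high-flow vessels were 0 under every alternative run. The one-table fit was not possible for the latter. The replicate block gave 13, 13, 12, 13 and 1 calls, and correlations of same-numbered libraries of -0.33 to 0.18 do not show that the numbers pair samples. Members near the level of 3 counts have wide intervals, with a half-width of up to 5.66 log2 units.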
